A study of Mus musculus with 12 samples.

Results

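The genes described here are 10 imprinted genes whose RNA levels differed between lines of mouse embryonic stem cells (mESCs) with and without the chromatin proteins HMGN1 and HMGN2. They are Grb10, Nnat, Peg10, Sgce, Peg13, Nap1l5, Mest, Peg3, Usp29 and Plagl1, 10 of the 23412 genes counted, and they lie outside the imprinted domains at the distal end of chromosome 7 and on chromosome 12. They were chosen on their measured values in these same 12 libraries, so that their levels and fold changes are a description. No p is given for them, and a threshold is used below only to sort them. For each gene the description says which line departed from WT and whether the double knockout followed it. Bulk RNA-Seq had been run on v6.5 mESCs, a male line grown on gelatin in serum with LIF, as WT, Hmgn1-/-, Hmgn2-/- and Hmgn1-/-Hmgn2-/- cells with 3 biological replicates each. Each knockout line came from a single cell edited with CRISPR-Cas9, and the Hmgn1-/-Hmgn2-/- line descends from Hmgn2-/- cells in which Hmgn1 was edited afterwards. The Hmgn1-/- line carried a small homozygous deletion and the Hmgn2-/- line a small homozygous insertion in the targeted gene. Because each knockout genotype is represented by cells grown from 1 founder cell, the effect of a genotype and a property of that line cannot be told apart.

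Genomic imprinting marks a gene in the germ line so that, in the offspring, it is read mainly from the chromosome of a given parent. The mark is DNA methylation at an imprinting control region, which the zinc finger protein ZFP57 and its partner TRIM28 help to keep through the wave of demethylation after fertilization. All members except Grb10 are known mainly as paternally expressed genes, and imprints are known to be lost or gained in cultured mESCs. Gene counts carry no information on the parental allele, so whether 1 or both alleles were read was not measured.

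The libraries held 17337908 to 31448468 counts. Levels are given as CPM after scaling by the trimmed mean of M values (TMM), and a floor of 3 counts corresponded to 0.0954 CPM in the deepest library and 0.173 CPM in the shallowest. Hmgn2-/- replicate 3 was the shallowest library and stood apart from its replicates, with a chi-square per degree of freedom of 34.3 and 19.5 against replicates 1 and 2, where these differed from each other by 7.75. WT replicate 1 also stood apart, at 10.7 and 11.5 against WT replicates 2 and 3, which differed from each other by 3.28. Where leaving out a library changed a call or moved a value much, the value without it is given.

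The targeted genes were read first as a check of the labels. Hmgn1 stood at 663, 600 and 614 CPM in WT libraries, 138, 139 and 141 in Hmgn1-/-, 545, 556 and 640 in Hmgn2-/-, and 21.5, 19.9 and 21.4 in Hmgn1-/-Hmgn2-/- libraries. Hmgn2 stood at 137, 123 and 120 CPM in WT libraries, 105, 113 and 109 in Hmgn1-/-, 50.7, 54.5 and 53.8 in Hmgn2-/-, and 53.9, 50.5 and 54.2 in Hmgn1-/-Hmgn2-/- libraries. In each of the 9 knockout libraries every gene named in the genotype was lower than in every WT library, and the labels were kept. Hmgn1 fell in Hmgn1-/- mESCs (log2 fold change (FC) −2.16 ± 0.0568 SE) and more so in the double knockout (log2 FC −4.89 ± 0.0687 SE). Hmgn2 fell by 1.24 and 1.25 on the log2 scale in Hmgn2-/- and Hmgn1-/-Hmgn2-/- mESCs.

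A line is said here to depart from WT for a gene when the gene was past the threshold against WT and the 3 libraries of the line did not overlap the 3 WT libraries. The threshold was an adjusted p under 0.01 and a log2 FC of at least 1 in size by the edgeR quasi-likelihood test with Benjamini-Hochberg adjustment over all genes tested. The double knockout is said to follow a line when it departed in the same direction and was not past the threshold against that line. Applied to members chosen on these contrasts, the rules sort the lines and are no evidence that a line differs. By these rules Hmgn2-/- mESCs departed from WT for Grb10, Peg13, Nap1l5, Plagl1 and Peg3, always to a lower level. The double knockout followed for Grb10 and Plagl1 and not for Peg3; for Peg13 and Nap1l5 it departed too, but was not tested against Hmgn2-/- mESCs. Hmgn1-/- mESCs departed for Nnat and Peg3, again to a lower level, and the double knockout followed for neither.

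**Figure D1:**
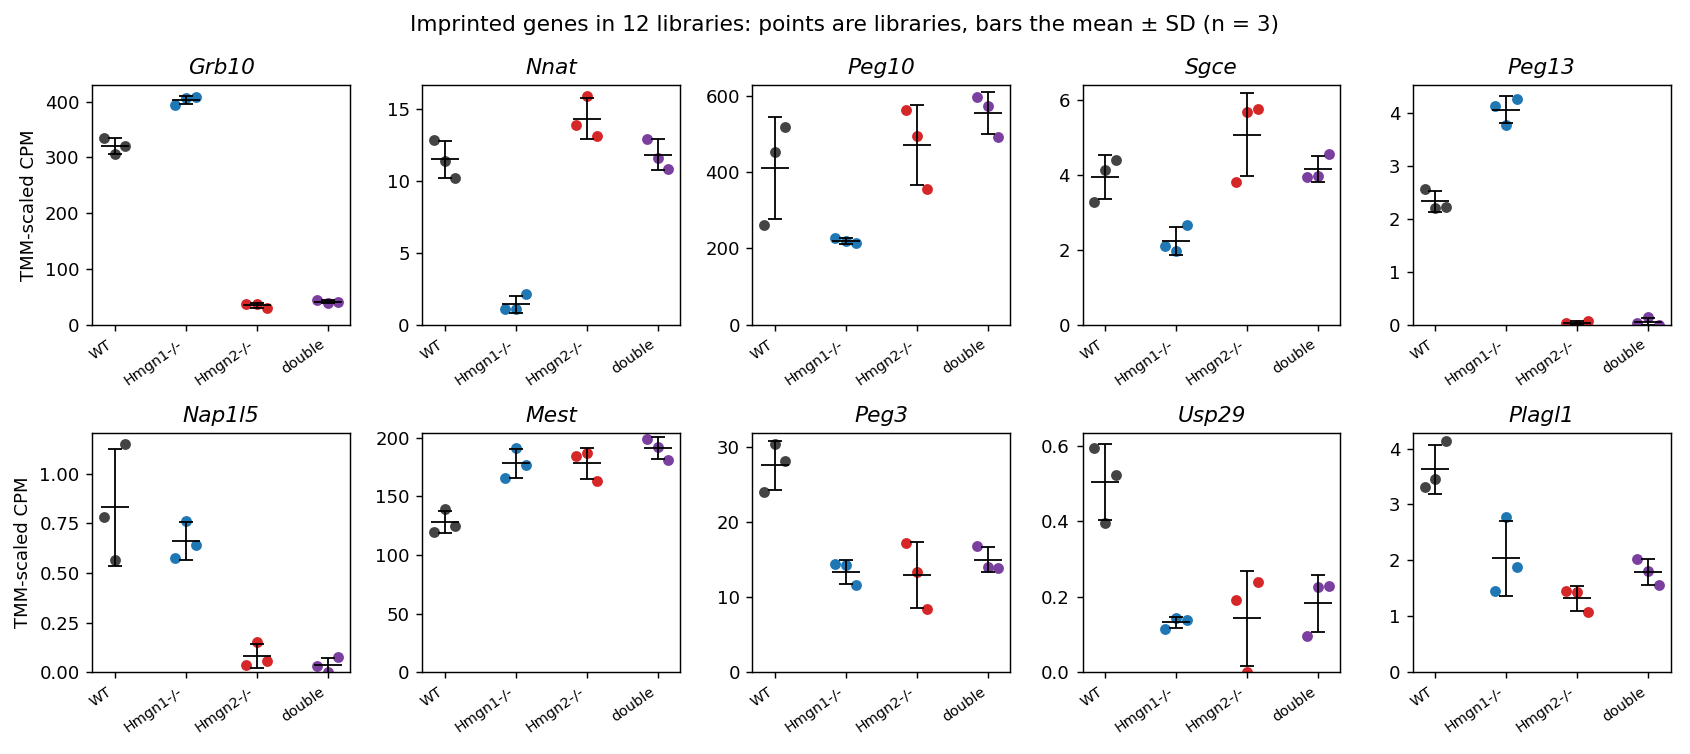
TMM-scaled CPM of the 10 genes in the 12 libraries, with a linear axis from 0 in every panel; points are libraries, and the bars give the mean ± SD of the 3 replicates of WT, Hmgn1-/-, Hmgn2-/- and the double knockout. Grb10, Peg13 and Nap1l5 are near the bottom of the axis in Hmgn2-/- and double knockout libraries, and Nnat is low in the Hmgn1-/- libraries alone.

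Grb10, which encodes an adaptor protein that binds insulin and growth factor receptors and restrains growth, was the abundant member that parted the lines most. It stood at 335, 306 and 320 CPM in the WT libraries and at 394, 407 and 408 CPM in the Hmgn1-/- libraries. In the Hmgn2-/- libraries it stood at 37.8, 36.6 and 29.3 CPM, and in the double knockout libraries at 44.5, 39.0 and 40.6 CPM. The libraries thus formed a high set of 6 and a low set of 6 with no overlap. The mean was 320 ± 14.7 CPM (SD, n = 3) in WT, 403 ± 7.97 (SD, n = 3) in Hmgn1-/-, 34.6 ± 4.64 (SD, n = 3) in Hmgn2-/- and 41.3 ± 2.86 CPM (SD, n = 3) in Hmgn1-/-Hmgn2-/- mESCs, so that 10.8% and 12.9% of the WT level was left in the last 2. The log2 FC against WT was −3.20 ± 0.106 (SE) in Hmgn2-/- and −2.95 ± 0.0674 in the double knockout, against 0.33 ± 0.0536 in Hmgn1-/- mESCs. Without Hmgn2-/- replicate 3 the log2 FC was −3.10 in Hmgn2-/- mESCs. The double knockout followed the Hmgn2-/- line, from which it differed by a log2 FC of 0.25 ± 0.108. In bulk RNA, fewer cells that read a gene and less RNA in each cell cannot be told apart.

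Grb10 lies on the minus strand of chromosome 11, at 11930499 to 12037428 in the mm10 build (GRCm38), and the RefSeq promoter table holds 2 starts for it. The sequence before the upstream start is shown because the gene had the largest difference among the abundant members. It runs from the plus-strand position chr11:12037429-12037670, is printed 5′ to 3′ on the minus strand, and holds 40 CpG in 242 bases. Capitals in this and the following sequences would mark TGCCGC on either strand, the core of the motif that ZFP57 is known to bind when methylated, or a motif of the zinc finger protein YY1. This sequence holds neither.
Grb10 promoter: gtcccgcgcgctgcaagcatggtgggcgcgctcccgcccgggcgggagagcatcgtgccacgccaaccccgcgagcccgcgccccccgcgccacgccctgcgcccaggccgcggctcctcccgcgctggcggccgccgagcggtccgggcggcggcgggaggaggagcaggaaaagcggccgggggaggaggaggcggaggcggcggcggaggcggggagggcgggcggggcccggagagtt

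Peg13 and Nap1l5 are both intronless genes that lie within the span of a larger gene. Peg13, a noncoding RNA at 72805602 to 72810324 on the minus strand of chromosome 15, lies within Trappc9. Nap1l5, of the nucleosome assembly protein family, lies at 58905233 to 58907126 on the minus strand of chromosome 6 within Herc3. Peg13 stood at 2.56, 2.21 and 2.22 CPM in the WT libraries (82, 39 and 64 counts) and at 4.14, 3.77 and 4.27 CPM in the Hmgn1-/- libraries. Hmgn2-/- libraries held 1, 0 and 1 counts of Peg13, and double knockout libraries 1, 3 and 0. Every library of these 2 groups was at or under the floor of 3 counts, and every WT and Hmgn1-/- library was well above it. Summed over libraries and scaled to depth, Peg13 stood at 1.22% of WT in Hmgn2-/- mESCs (exact 95% counting interval 0.147% to 4.48%) and at 2.13% in the double knockout (0.574% to 5.54%). Intervals and floors cover counting error only. The intervals rest on counts pooled over the libraries of a group, so that the spread between replicates is left out. The reads also carried no molecular identifiers. The fitted log2 FC was −6.10 ± 0.511 (SE) in Hmgn2-/- and −5.41 ± 0.501 in the double knockout, values that depend on the prior count of the fit. Without the double knockout replicate 2, the library with 3 counts, the latter was −6.74. The former was −5.49 without Hmgn2-/- replicate 2 and −6.61 without replicate 3. In Hmgn1-/- mESCs Peg13 was at 174% of the WT mean, with a log2 FC of 0.80 ± 0.181 that was inside the fold limit.

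Nap1l5 was read at low depth in all lines. It had 25, 10 and 33 counts in the WT libraries, or 0.782, 0.566 and 1.15 CPM, and 0.575, 0.764 and 0.642 CPM in the Hmgn1-/- libraries. The Hmgn2-/- libraries held 1, 4 and 1 counts and the double knockout libraries 1, 0 and 2. The lowest WT or Hmgn1-/- library was above the highest library of the other 2 lines. Summed and scaled, 9.99% of the WT level was left in Hmgn2-/- mESCs (exact 95% counting interval 3.54% to 22.9%) and 4.34% in the double knockout (0.873% to 13.2%). The fitted log2 FC was −3.22 ± 0.555 (SE) and −4.34 ± 0.648, and without WT replicate 3 the former was −2.92 and no longer past the threshold. Without Hmgn2-/- replicate 2, which held 4 of the counts, it was −4.03, and without the double knockout replicate 3 the latter was −5.19. Against Hmgn1-/- mESCs the double knockout was past the threshold for Nap1l5 (log2 FC −3.95), a call lost without Hmgn1-/- replicate 2 (−3.85) or without the double knockout replicate 1 (−3.83) or 2 (−3.53); without replicate 3 it was −4.80. Hmgn2-/- against Hmgn1-/- mESCs, at −2.85 ± 0.524 (SE), or −3.66 without Hmgn2-/- replicate 2, missed the limit on the adjusted p. Neither Peg13 nor Nap1l5 passed the filter on low counts between the double knockout and Hmgn2-/- mESCs, so that whether these lines differ was not tested. For Nap1l5, 3 counts in the double knockout against 6 in Hmgn2-/- mESCs gave a ratio of 43.5% with an interval of 7.03% to 203%.

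The stretch before the start of Nap1l5 is shown as an example of a member promoter that holds TGCCGC, at chr6:58907127-58907261, printed 5′ to 3′ on the minus strand, with 8 CpG in 135 bases. It is 135 of the 300 bases of the table's promoter and holds 1 of its 2 matches, in capitals.
Nap1l5 promoter: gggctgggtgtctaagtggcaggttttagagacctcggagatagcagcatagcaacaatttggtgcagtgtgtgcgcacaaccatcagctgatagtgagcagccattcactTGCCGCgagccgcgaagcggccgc

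Nnat was low in Hmgn1-/- mESCs and overlapped WT in the double knockout. It encodes neuronatin, a small membrane protein best known from the developing brain, and lies at 157560078 to 157562525 on the plus strand of chromosome 2 within the span of Blcap, which is on the opposite strand. Nnat stood at 12.8, 11.4 and 10.2 CPM in the WT libraries and at 1.07, 1.10 and 2.11 CPM in the Hmgn1-/- libraries (28, 23 and 46 counts). It stood at 13.9, 15.9 and 13.1 CPM in Hmgn2-/- libraries and at 12.9, 11.6 and 10.8 CPM in double knockout libraries. The 3 Hmgn1-/- libraries lay far below the other 9, the double knockout overlapped WT, and the Hmgn2-/- libraries lay just above WT. The log2 FC against WT was −3.01 ± 0.216 (SE) in Hmgn1-/-, 0.33 ± 0.130 in Hmgn2-/- and 0.04 ± 0.120 in the double knockout. At 12.4% of the WT mean, the level in Hmgn1-/- mESCs contrasted with 102% in the double knockout. Why these lines differ was not tested, and genotype and a property of the line cannot be told apart. The log2 FC of Nnat in the double knockout against Hmgn1-/- mESCs was 3.06 ± 0.199. No alternative setting and no left-out library changed a call of Grb10, Nnat or Peg13 where they were tested.

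Peg10 and Sgce are neighbours on chromosome 6 that are read in opposite directions from starts 101 bases apart. Peg10 (4747306 to 4760517, plus strand) derives from a retrotransposon and is needed for the placenta, and Sgce (4674350 to 4747204, minus strand) encodes epsilon-sarcoglycan, a membrane protein. Peg10 stood at 262, 452 and 519 CPM in WT libraries, 228, 219 and 213 in Hmgn1-/-, 562, 495 and 356 in Hmgn2-/-, and 597, 574 and 493 CPM in double knockout libraries. Sgce stood at 3.28, 4.13 and 4.41 CPM in WT libraries, 2.11, 1.96 and 2.66 in Hmgn1-/-, 3.80, 5.68 and 5.77 in Hmgn2-/-, and 3.94, 3.98 and 4.55 CPM in double knockout libraries. For both genes the 3 Hmgn1-/- libraries were the lowest of the 12, and the other knockout lines overlapped WT.

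Neither Peg10 nor Sgce was past the threshold against WT in any line, so by the rule no line departed. The log2 FC in Hmgn1-/- mESCs was −0.90 ± 0.166 (SE) for Peg10 and −0.80 ± 0.204 for Sgce. The spread of Peg10 within WT was wide, at 411 ± 133 CPM (SD, n = 3), and without WT replicate 1, its lowest WT library, the log2 FC was −1.14 and past the threshold. Against Hmgn1-/- mESCs, Peg10 was higher in Hmgn2-/- (1.10 ± 0.137) and in the double knockout (1.33 ± 0.0673), both past the threshold. The first of these calls was lost without Hmgn1-/- replicate 1 (1.12), 2 (1.10) or 3 (1.08) and without Hmgn2-/- replicate 1 (0.95) or 2 (1.06). Sgce in Hmgn2-/- against Hmgn1-/- mESCs, at 1.17 ± 0.214, missed the limit on the adjusted p. It was past the threshold under 5 alternatives. These were DESeq2 (1.18), no filter on low counts (1.17) and a block for the replicate number (1.16). The others were the fit of all 12 libraries (1.17) and leaving out Hmgn2-/- replicate 1 (1.35). In the double knockout against Hmgn1-/- mESCs Sgce was at 0.89 ± 0.179, and at 1.03 and past the threshold without Hmgn1-/- replicate 3.

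Peg3 and Usp29 are also read in opposite directions, from starts 96 bases apart on chromosome 7. Peg3 (6703892 to 6730462, minus strand) encodes a zinc finger protein and Usp29 (6730559 to 6967220, plus strand) a ubiquitin-specific peptidase. The stretch between the starts is shown because both genes were lower in the 3 knockout lines; it lies at chr7:6730463-6730558, is printed 5′ to 3′ on the plus strand as read towards Usp29, and holds 3 CpG and neither motif, so that it has no capitals.
Stretch between Peg3 and Usp29: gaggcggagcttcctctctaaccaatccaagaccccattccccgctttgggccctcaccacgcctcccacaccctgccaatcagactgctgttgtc

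Peg3 stood at 24.1, 30.5 and 28.2 CPM in WT libraries, 14.4, 14.3 and 11.6 in Hmgn1-/-, 17.2, 13.4 and 8.44 in Hmgn2-/-, and 16.9, 14.1 and 13.9 CPM in double knockout libraries. Every knockout library was below every WT library, and the 3 knockout lines overlapped one another. The log2 FC was −1.03 ± 0.113 (SE) in Hmgn1-/- and −1.05 ± 0.200 in Hmgn2-/-, both just past the threshold. It was −0.87 ± 0.110 in the double knockout, just short of the threshold, so that the rule parts lines whose levels did not differ beyond their spread. The call in Hmgn1-/- mESCs was lost without WT replicate 2 (−0.96) or Hmgn1-/- replicate 3 (−0.94). The call in Hmgn2-/- mESCs was lost without WT replicate 2 (−0.98) or 3 (−1.04), or without Hmgn2-/- replicate 2 (−1.07) or 3 (−0.84).

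Usp29 was at the edge of detection, with 19, 7 and 15 counts in WT libraries, 3, 3 and 3 in Hmgn1-/-, 5, 0 and 4 in Hmgn2-/-, and 3, 5 and 6 in double knockout libraries. The lowest WT library, at 0.396 CPM, was above the highest knockout library, at 0.238 CPM. Summed and scaled, 25.0% of the WT level was left in Hmgn1-/- (exact 95% counting interval 10.7% to 52.3%), 24.9% in Hmgn2-/- (10.6% to 51.9%) and 33.6% in the double knockout (16.9% to 62.9%). Usp29 did not pass the filter on low counts in Hmgn1-/- against WT, and it missed the threshold in the other 2 lines, with a log2 FC of −1.93 ± 0.650 (SE) in Hmgn2-/- mESCs, or −1.26 without Hmgn2-/- replicate 2, and −1.52 ± 0.470 in the double knockout. The intervals between the knockouts were wide, at 34.9% to 282% for Hmgn2-/- against Hmgn1-/- mESCs, so that a difference of that size was not detectable at this depth.

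Plagl1, a zinc finger transcription factor at 13090832 to 13131694 on the plus strand of chromosome 10, was lower in all knockout libraries. It stood at 3.32, 3.45 and 4.13 CPM in WT libraries, 1.46, 2.77 and 1.88 in Hmgn1-/-, 1.46, 1.44 and 1.07 in Hmgn2-/-, and 2.02, 1.81 and 1.56 CPM in double knockout libraries. No knockout library reached the lowest WT library, and the Hmgn1-/- libraries overlapped those of both other knockouts. The log2 FC was −1.43 ± 0.218 (SE) in Hmgn2-/-, −1.01 ± 0.199 in the double knockout and −0.85 ± 0.238 in Hmgn1-/- mESCs. By the rule the Hmgn2-/- line departed and the double knockout followed it, with a log2 FC of 0.42 ± 0.223 between them. The call in the double knockout was lost without WT replicate 3 (−0.91) or its own replicate 3 (−0.91), and Hmgn1-/- mESCs were past the threshold without Hmgn1-/- replicate 2 (−1.13).

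Mest, of the alpha/beta hydrolase family, was the member that was higher in every knockout line. It lies at 30733506 to 30748466 on the plus strand of chromosome 6. Mest stood at 120, 139 and 125 CPM in WT libraries, 166, 191 and 177 in Hmgn1-/-, 184, 187 and 163 in Hmgn2-/-, and 199, 192 and 181 CPM in double knockout libraries. All 9 knockout libraries were above all 3 WT libraries, and the knockouts overlapped one another. With a log2 FC of 0.48 ± 0.0679 (SE), 0.49 ± 0.0853 and 0.58 ± 0.0641, no line reached the fold limit and none departed by the rule. The sequence before an internal start of Mest, at chr6:30737800-30738049 on the plus strand, is shown because it holds TGCCGC at 2 places; both lie on the minus strand and read GCGGCA as printed here in capitals, among 14 CpG in 250 bases.
Mest internal promoter: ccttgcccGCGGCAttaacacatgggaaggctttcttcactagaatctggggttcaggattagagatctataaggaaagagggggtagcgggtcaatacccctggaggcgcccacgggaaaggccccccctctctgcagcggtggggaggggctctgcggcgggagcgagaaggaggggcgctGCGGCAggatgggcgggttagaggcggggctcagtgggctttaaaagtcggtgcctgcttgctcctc

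**Figure D2:**
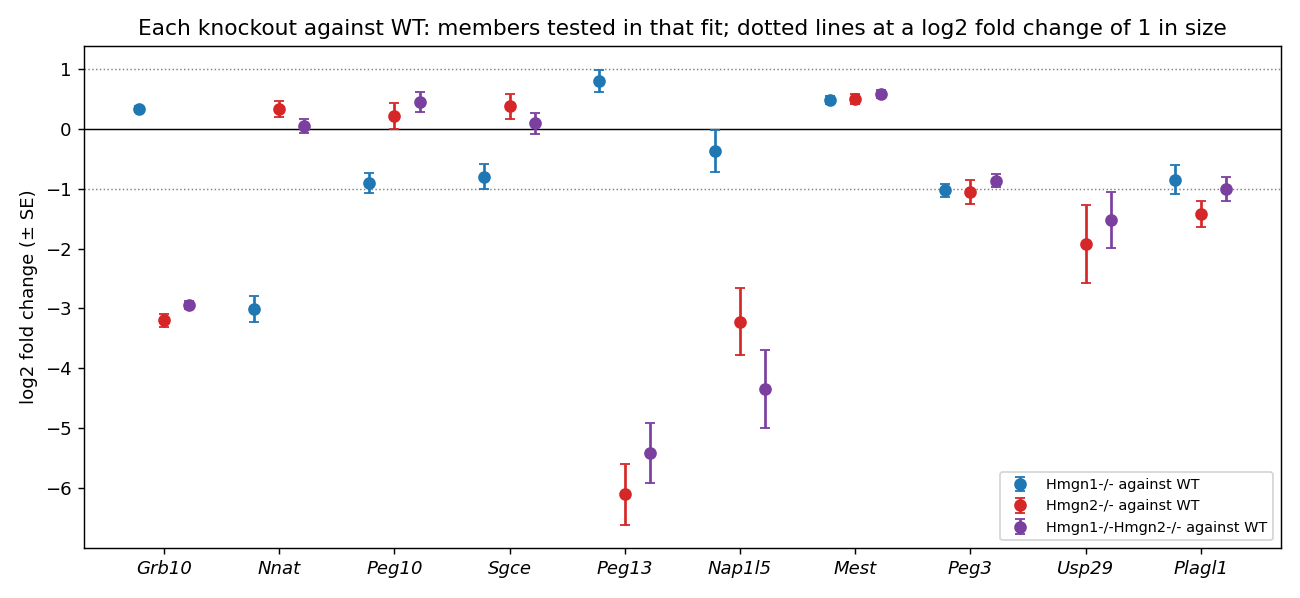
The log2 FC of the 10 genes in each knockout against WT (points), with bars of ± SE from fits of 6 libraries; dotted lines mark a log2 FC of 1 in size, and a gene is left out where it did not pass the filter on low counts (Usp29 in Hmgn1-/- mESCs). Grb10, Peg13 and Nap1l5 lie between −2.95 and −6.10 in Hmgn2-/- and double knockout mESCs, and Nnat lies at −3.01 in Hmgn1-/- mESCs.

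The counts of members past the threshold are given beside the share of all genes, and nothing is read from them since the members were chosen on these contrasts. Against WT, 2 of the 9 members tested were past the threshold in Hmgn1-/- mESCs (5.98% of all genes tested), 5 of 10 in Hmgn2-/- mESCs (5.15%) and 4 of 10 in the double knockout (6.30%). With the further condition that the libraries did not overlap, the shares of all genes were 5.97%, 5.15% and 6.29%, and the members were the same, since those past the threshold against WT all met it. Between knockouts, 4 of 9 were past the threshold in Hmgn2-/- against Hmgn1-/- mESCs (0.176% of all genes), and 5 of 9 in the double knockout against Hmgn1-/- mESCs (0.511%). In the double knockout against Hmgn2-/- mESCs, 0 of 7 were past the threshold by edgeR (0.0434% of all genes), with 2 at an unadjusted p under 0.05 and 0 past the threshold by DESeq2. Genes with so few counts as Peg13, Nap1l5 and Usp29 pass the filter on low counts only through the groups where they are high.

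**Figure D3:**
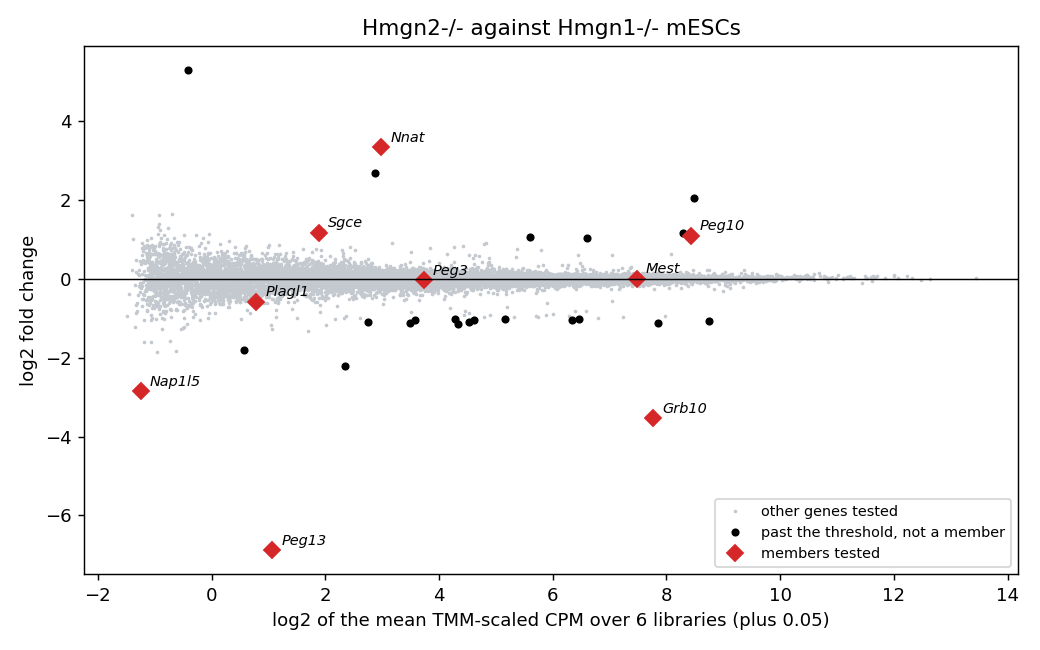
The log2 FC of each gene tested in Hmgn2-/- against Hmgn1-/- mESCs (vertical axis), plotted against the log2 of its mean TMM-scaled CPM over the 6 libraries plus 0.05 (horizontal axis); diamonds are the members tested, and black points are other genes past the threshold. Of 13648 genes tested 24 were past the threshold, among them Grb10, Peg13, Nnat and Peg10.

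The design with both knockouts also gives the departure from additivity, which is the log2 FC of the double knockout less the sum of those of both knockouts, from a fit of all 12 libraries. It was past the threshold for 2 of the 10 members, Nnat at 2.73 ± 0.253 (SE) and Peg3 at 1.22 ± 0.256, where 3.48% of all genes were. For Nnat the value is the low level of Hmgn1-/- mESCs, which the double knockout did not share. For Peg3 it is the like level of all 3 knockouts, and this call was lost without WT replicate 2 (1.14) or 3 (1.20), Hmgn1-/- replicate 1 (1.27), 2 (1.25) or 3 (1.12), Hmgn2-/- replicate 2 (1.23), or the double knockout replicate 1 (1.12) or 2 (1.25). Peg10 (1.14 ± 0.269), Plagl1 (1.27 ± 0.336) and Usp29 (2.36 ± 0.953, or 1.69 without Hmgn2-/- replicate 2) missed the limit on the adjusted p. Peg10 passed it without WT replicate 1 (1.38) or Hmgn2-/- replicate 1 (1.28). It also passed with no filter on low counts (1.13) or with a block for the replicate number (1.14). Plagl1 passed it without Hmgn1-/- replicate 2 (1.54). For Grb10 the departure from additivity was −0.08 ± 0.117, near 0.

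To compare levels between genes, CPM were divided by the kilobases of each gene's merged exons in a GENCODE annotation of mm10, which gives RPKM. In WT mESCs Peg10 was the most abundant member at 61.7 RPKM, with the wide spread given above, followed by Grb10 at 35.2 ± 1.62 RPKM (SD, n = 3) and Mest at 32.5 ± 2.42, which did not differ beyond their spread. Nnat at 6.28 ± 0.697 RPKM and Peg3 at 2.07 ± 0.244 came next. Peg13 (0.493 ± 0.0429), Plagl1 (0.465 ± 0.0560), Nap1l5 (0.451 ± 0.159) and Sgce (0.371 ± 0.0552 RPKM) lay within a narrow range in which neighbours did not differ beyond their spread, and Usp29 was lowest at 0.0279 ± 0.00555 RPKM. In Hmgn2-/- mESCs Grb10, at 3.80 ± 0.510 RPKM, was below Nnat at 7.82 ± 0.779 RPKM, the reverse of their order in WT. In Hmgn1-/- mESCs Nnat was at 0.780 ± 0.323 RPKM, next to Peg13 at 0.859 ± 0.0542 and Peg3 at 1.01 ± 0.116 RPKM.

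The strand of counting was not stated, so overlapping genes could share reads. Exons of Mest and Copg2, on opposite strands, share 912 bases, or 23.1% of the exon length of Mest, and exons of Usp29 and Zim3 share 2582 bases, or 14.3% of that of Usp29. Copg2 stood at 39.2 ± 0.772 CPM (SD, n = 3) in WT and at 39.1 ± 0.386, 37.6 ± 1.70 and 36.2 ± 2.31 CPM in Hmgn1-/-, Hmgn2-/- and double knockout mESCs. Zim3 had 3 counts over the WT libraries and 0 elsewhere. Mir335, Peg3as and Mir3099, which overlap Mest, Peg3 and Usp29, had 0 counts in the 12 libraries. The genes around Nnat, Peg13 and Nap1l5 share no exon with them in the count table.

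These host genes did not pass the threshold against WT in any line. Blcap, around Nnat, was at 30.3 ± 2.17 CPM (SD, n = 3) in WT and 28.9 ± 0.995 in Hmgn1-/- mESCs, with a log2 FC of −0.07 ± 0.0825 (SE; adjusted p = 0.589 by the edgeR quasi-likelihood test with Benjamini-Hochberg adjustment). Trappc9, around Peg13, had a log2 FC of −0.13 ± 0.0975 in Hmgn2-/- and −0.15 ± 0.0798 in double knockout mESCs. Herc3, around Nap1l5, was lower in all 3 lines by less than the fold limit, at −0.38 ± 0.110, −0.54 ± 0.131 and −0.49 ± 0.111, and in the double knockout its adjusted p was 0.00462 by the same edgeR quasi-likelihood test with Benjamini-Hochberg adjustment.

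For each member the 3 nearest tested genes on either side were also taken, which with the overlapping genes made 52 genes. Of these, 2 of 47 tested fell in Hmgn1-/- (Aurkc and Col1a2), 2 of 48 in Hmgn2-/- (the same pair) and 3 of 48 in double knockout mESCs (these and Ddc), and 0 rose by edgeR, with 16, 14 and 16 genes of the list at an unadjusted p under 0.05 in either direction and 2, 2 and 3 past the threshold by DESeq2. Over all genes 5.08%, 4.38% and 5.00% fell and 0.898%, 0.776% and 1.30% rose. The median log2 FC of the list was −0.07, −0.06 and −0.06, beside 0.00, 0.01 and 0.00 over all genes. Between knockouts the list had 0 genes past the threshold in each of the 3 comparisons by edgeR, with 0, 6 and 1 at an unadjusted p under 0.05 (Hmgn2-/- against Hmgn1-/-, and the double knockout against Hmgn1-/- and against Hmgn2-/-), and 0 by DESeq2.

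**Figure D4:**
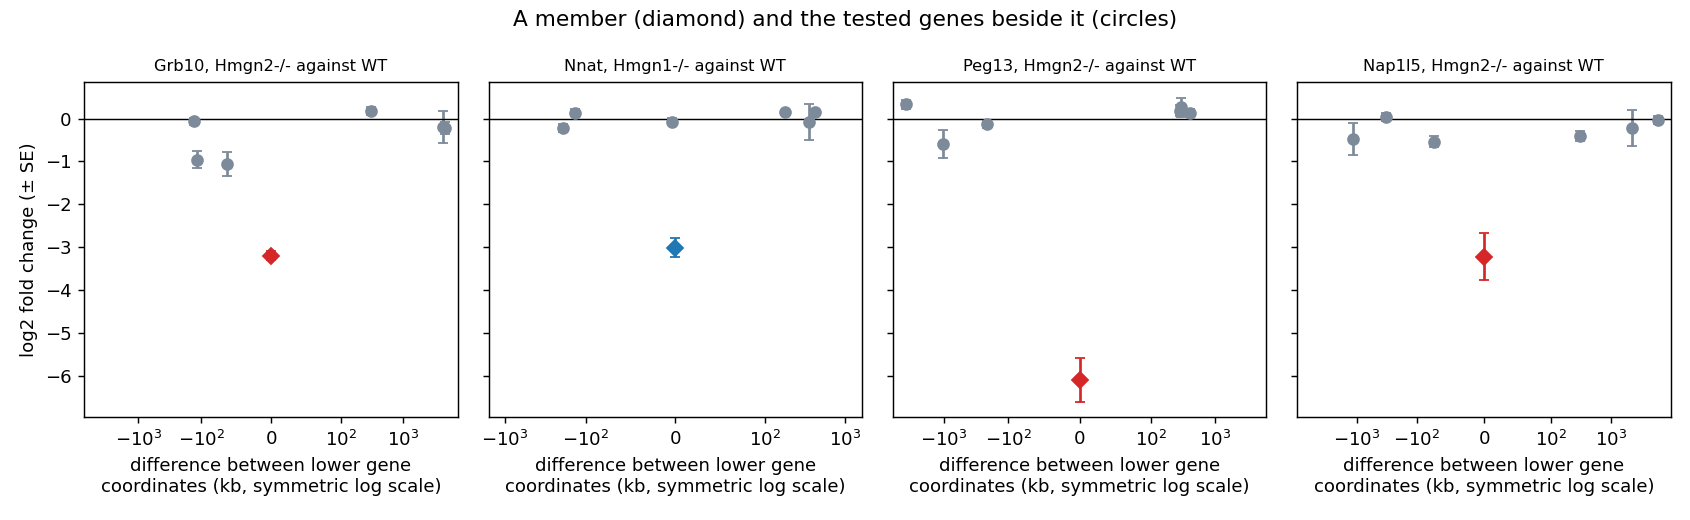
The log2 FC (± SE) of Grb10, Peg13 and Nap1l5 in Hmgn2-/- mESCs and of Nnat in Hmgn1-/- mESCs (diamonds), with the tested genes beside each (circles), against the difference between their lower coordinates on the chromosome in kb, on a symmetric log scale that is linear within 100 kb. The member stands at −3.20, −6.10, −3.22 and −3.01, and no circle is past the threshold in these 4 panels.

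Aurkc, a meiotic Aurora kinase gene whose lower coordinate lies 291.5 kb from that of Peg3, fell in all 3 lines, with a log2 FC of −2.01 ± 0.296 (SE) in Hmgn1-/-, −1.78 ± 0.299 in Hmgn2-/- and −1.84 ± 0.279 in double knockout mESCs. The call in Hmgn2-/- mESCs was lost without Hmgn2-/- replicate 2 (−1.63). Col1a2, a type I collagen gene whose lower coordinate lies at −241.7 kb from that of Peg10, fell in all 3 lines, with a log2 FC of −2.86 ± 0.430 (SE), −2.75 ± 0.417 and −2.41 ± 0.396. In contrast to Peg10 and Sgce, its levels were alike in the 3 knockouts, at 0.365 ± 0.173, 0.399 ± 0.0547 and 0.530 ± 0.218 CPM (SD, n = 3) against 2.68 ± 1.25 CPM in WT. Without WT replicate 1, Col22a1 (−1.30) beside Peg13 also passed the threshold in Hmgn1-/- mESCs; it is named after its values were seen. In the double knockout Col22a1 passed it without the same library (−1.27). With no filter on low counts it passed in both lines (−1.14 and −1.11).

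Beside Grb10, Ddc, the gene of an enzyme of dopamine and serotonin synthesis whose imprinting is known from the heart, was lower in every knockout library than in every WT library. It stood at 27.2 ± 5.78 CPM (SD, n = 3) in WT, 16.4 ± 2.50 in Hmgn1-/-, 13.9 ± 3.66 in Hmgn2-/- and 13.3 ± 2.00 CPM in double knockout mESCs. Ddc fell in the double knockout (log2 FC −1.03 ± 0.151 SE, adjusted p = 1.83e-04 by the edgeR quasi-likelihood test with Benjamini-Hochberg adjustment), a call lost without WT replicate 2 (−0.96) or 3 (−0.91) or the double knockout replicate 1 (−0.90). In Hmgn2-/- mESCs the log2 FC was −0.96 ± 0.200, inside the fold limit, and past it without WT replicate 1 (−1.14) or Hmgn2-/- replicate 3 (−1.15). Ddc differs from Grb10 in that Hmgn1-/- mESCs too were below WT (−0.72 ± 0.147). The gene 1700042O10Rik, also beside Grb10 and named after its values were seen, stood at 1.78 ± 0.353 CPM (SD, n = 3) in WT. It stood at 1.33 ± 0.478 in Hmgn1-/-, 0.870 ± 0.163 in Hmgn2-/- and 0.999 ± 0.539 CPM in double knockout mESCs. Only its Hmgn2-/- libraries did not overlap WT, and it was not past the threshold in any line. Cobl, on the other side of Grb10, had a log2 FC of 0.18 ± 0.0894 in Hmgn2-/- mESCs.

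A wider list of 49 other imprinted genes was taken from textbook knowledge, of which 47 were among the genes counted. Of 35 tested in Hmgn1-/- mESCs 1 fell, Magel2, and 0 rose by edgeR, with 17 at an unadjusted p under 0.05 and 1 past the threshold by DESeq2. Of 34 tested in Hmgn2-/- mESCs 0 passed by edgeR, with 13 at an unadjusted p under 0.05 and 1 by DESeq2. Of 34 tested in the double knockout 1 fell, Ddc, and 0 rose by edgeR, with 20 at an unadjusted p under 0.05 and 1 by DESeq2. The shares of all genes that fell were 5.08%, 4.38% and 5.00%, and those that rose 0.898%, 0.776% and 1.30%. The median log2 FC of the list was 0.01, 0.06 and 0.05, beside 0.00, 0.01 and 0.00 over all genes. Between knockouts 0 passed in each comparison by edgeR, with 6, 9 and 1 at an unadjusted p under 0.05 and 0 by DESeq2. At any fold, 2, 4 and 0 had an adjusted p under 0.01 by the same edgeR test.

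**Figure D5:**
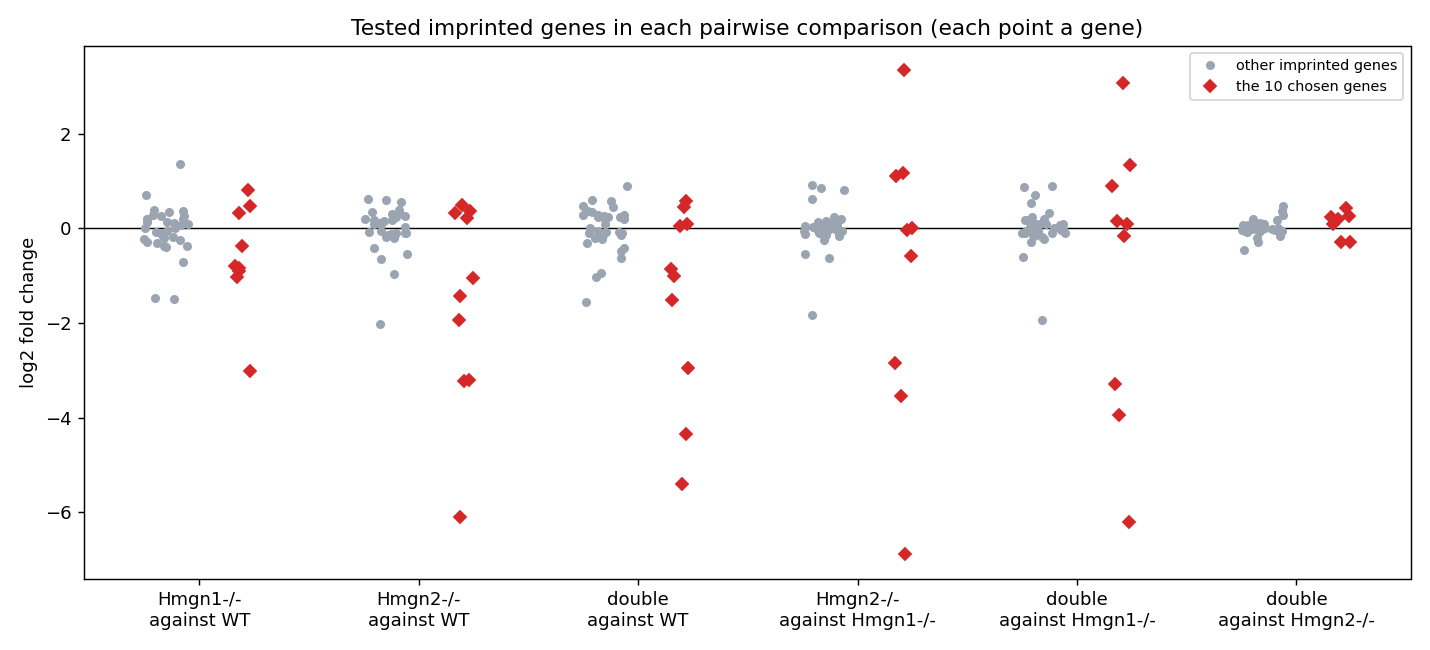
The log2 FC of the tested genes of the list of other imprinted genes (grey circles) and of the 10 chosen genes (red diamonds) in the 6 pairwise comparisons; each point is a gene, with sideways scatter only to part the points. The medians of the grey circles lie between −0.02 and 0.06, and the chosen genes spread from −6.89 to 3.34.

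Magel2, of the Prader-Willi region, stood between 3.37 and 4.64 CPM in WT libraries and at 1.44 ± 0.579 CPM (SD, n = 3), 2.46 ± 0.495 and 2.07 ± 0.305 CPM in Hmgn1-/-, Hmgn2-/- and double knockout mESCs. Its log2 FC in Hmgn1-/- mESCs was −1.48 ± 0.262 (SE, adjusted p = 7.85e-04 by the edgeR quasi-likelihood test with Benjamini-Hochberg adjustment), and all 9 knockout libraries were below all WT libraries. In the double knockout it was −0.94 ± 0.200, and past the threshold without WT replicate 3 (−1.06) or the double knockout replicate 2 (−1.03). Calcr, named after its values were seen, was lower in the 3 lines (−1.49 ± 0.425, −2.02 ± 0.489 and −1.55 ± 0.430) and missed the limit on the adjusted p. Without WT replicate 3, which held the most Calcr, it passed in Hmgn1-/- (−1.77) and double knockout mESCs (−1.84).

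Gpr1, Mcts2, Zrsr1 and H13 of the other imprinted genes, named after their values were seen, also parted the lines without passing the threshold. Gpr1 stood at 0.338 ± 0.221 CPM (SD, n = 3) in WT, 0.952 ± 0.315 in Hmgn1-/-, 0.250 ± 0.0643 in Hmgn2-/- and 0.255 ± 0.171 CPM in the double knockout. Against Hmgn1-/- mESCs its log2 FC was −1.84 ± 0.413 (SE) in Hmgn2-/- and −1.94 ± 0.467 in double knockout mESCs, past the fold limit but not that on the adjusted p. Mcts2 stood at 24.4 ± 0.324 CPM (SD, n = 3) in WT, 19.6 ± 1.25 in Hmgn1-/-, 36.9 ± 7.13 in Hmgn2-/- and 36.0 ± 2.12 CPM in the double knockout. Zrsr1 stood at 18.9 ± 1.47, 15.3 ± 1.76, 27.6 ± 1.36 and 28.4 ± 1.07 CPM in the same order. For both genes the Hmgn2-/- and double knockout libraries lay above all WT and Hmgn1-/- libraries. Mcts2 lies within H13, which went the other way, at 63.6 ± 3.65, 72.6 ± 3.97, 47.2 ± 2.31 and 47.5 ± 1.76 CPM. In the double knockout against Hmgn1-/- mESCs the log2 FC was 0.88 ± 0.0827 (SE) for Mcts2, 0.89 ± 0.0940 for Zrsr1 and −0.61 ± 0.0662 for H13, with adjusted p of 1.04e-05, 3.21e-05 and 4.29e-05 by the edgeR quasi-likelihood test with Benjamini-Hochberg adjustment. Without Hmgn2-/- replicate 1, Mcts2 was past the threshold in Hmgn2-/- against Hmgn1-/- mESCs (1.03, against 0.91 with all libraries).

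Of 19 genes that keep or set imprints 18 were tested, and 0 passed the threshold in any of the 3 lines against WT by edgeR, with 8, 6 and 10 at an unadjusted p under 0.05 and 0 by DESeq2. Over all genes the shares past the threshold were 5.98%, 5.15% and 6.30%. At any fold, 4, 2 and 6 of the 18 had an adjusted p under 0.01 by the edgeR quasi-likelihood test with Benjamini-Hochberg adjustment; Nlrp2 had 0 counts in the 12 libraries. Zfp57 stood at 495 ± 42.2 CPM (SD, n = 3) in WT and at 537 ± 9.43, 519 ± 29.3 and 526 ± 42.4 CPM in Hmgn1-/-, Hmgn2-/- and double knockout mESCs. Dnmt3a, a de novo DNA methyltransferase, was higher in all 3 lines by less than the fold limit (log2 FC 0.70 ± 0.0709, 0.83 ± 0.0895 and 0.92 ± 0.0685 SE). Dnmt3l, its cofactor, was lower by less than the fold limit (−0.72 ± 0.103, −0.76 ± 0.134 and −0.65 ± 0.107). The part of these genes in the levels of the members was not tested. Dnmt3a and Dnmt3l were picked after their values were seen, and DNA methylation was not measured here.

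Markers of cell types were summed in each library. The 8 mESC markers summed to between 5300 and 6080 CPM in all 12 libraries, with Pou5f1 the most abundant and none at 0. Single markers, named after their values were seen, moved in opposite directions. Mean Nanog was 257 CPM in WT and 206, 180 and 188 CPM in Hmgn1-/-, Hmgn2-/- and double knockout mESCs. Mean Klf4 was 126, 239, 202 and 210 CPM in the same order. In every knockout library Nanog was below, and Klf4, Esrrb, Tdgf1 and Utf1 above, all WT libraries. Against WT 0 of the 8 were past the threshold in each line, beside 5.98%, 5.15% and 6.30% of all genes. The 10 primitive endoderm markers, of which Dab2 was the most abundant and Ttr was at 0 throughout, summed to 11.9, 12.7 and 14.5 CPM in WT libraries, 76.9, 62.9 and 63.3 in Hmgn1-/-, 94.3, 86.2 and 64.5 in Hmgn2-/-, and 189, 190 and 177 CPM in double knockout libraries; 5, 5 and 8 of the 8 tested rose against WT, beside 0.898%, 0.776% and 1.30% of all genes. This sum was highest in the double knockout and alike in Hmgn1-/- and Hmgn2-/- mESCs. The 8 fibroblast markers, with Thy1 the most abundant and Lum at 0, summed to 21.4, 17.8 and 22.2 CPM in WT libraries, 6.98, 5.83 and 6.47 in Hmgn1-/-, 6.37, 7.08 and 6.90 in Hmgn2-/-, and 5.98, 8.99 and 7.67 CPM in double knockout libraries; 3 of the 4 tested fell in each line, Col1a2 among them, beside 5.08%, 4.38% and 5.00% of all genes.

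The 8 trophoblast markers, with Eomes the most abundant and Tpbpa and Prl3d1 at 0, summed to 17.2, 22.4 and 23.4 CPM in WT libraries, 9.74, 7.93 and 9.31 in Hmgn1-/-, 12, 9.99 and 10.1 in Hmgn2-/-, and 9.31, 9.99 and 10.5 CPM in double knockout libraries; 2 of the 5 tested fell in each line, beside the same shares of all genes (5.08%, 4.38% and 5.00%). The 6 neural markers, with Stmn2 the most abundant and none at 0, summed to between 422 and 531 CPM in all 12 libraries. Of these Sox1 and Neurod1, named after their values were seen, moved in opposite directions. Mean Sox1 was 17.2 CPM in WT and 25.5, 27.5 and 30.0 CPM in Hmgn1-/-, Hmgn2-/- and double knockout mESCs. Mean Neurod1 was 10.4, 7.25, 5.51 and 6.82 CPM in the same order. Neither gene's knockout libraries overlapped WT, and 0 of the 6 were past the threshold against WT in each line. The fibroblast and trophoblast sums were higher in WT than in all 3 knockouts. The part of these cell types in the levels of the 10 members was not tested.

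The RefSeq promoter table for mm10 held 10 promoters of 7 members, each from 250 bases before to 50 bases after a start; Peg10, Sgce and Peg13 are named only. Over these 10 promoters the median share of G and C was 61.7% and the median number of CpG was 17, beside 52.7% and 7 over all 32851 promoters of the table. TGCCGC was found on either strand in 6 of the 10 (60.0%), beside 11.6% of all promoters, and the YY1 motif in 0 of 10, beside 2.38%. As TGCCGC itself holds a CpG, its share depends on the number of CpG, and promoters of like CpG number were not compared. Those with TGCCGC were a promoter each of Nnat, Nap1l5, Plagl1 and Grb10 and 2 overlapping promoters of Mest; the match of Grb10 lies after the start, outside the sequence printed above. The 10 promoters are not independent, since Peg3 and Usp29 overlap and Mest has 3. A match is a description of the letters and not a binding site.

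For each member the genes most like it were taken by the Pearson r of log2 CPM over the 12 libraries, among the 11548 genes that averaged 50 counts or more per library. The libraries fall into 4 groups of 3, so r mostly reflects the differences between the groups. For Grb10 these were Rhoa (r = 0.995), Rbm6 (0.990) and Usp4 (0.990), and for Peg13 they were Rhoa (0.988), Tmc6 (0.987) and Hyal2 (0.985). For Nap1l5 they were Ypel5 (0.964), Hmgn2 itself (0.962) and Usp4 (0.960). All of these were lower in the Hmgn2-/- and double knockout libraries than in the WT libraries, without overlap. Rhoa, for example, stood at 325 ± 4.69 CPM (SD, n = 3) in WT, 331 ± 4.93 in Hmgn1-/-, 172 ± 2.75 in Hmgn2-/- and 175 ± 5.83 CPM in the double knockout.

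For Nnat the most alike genes were Cant1, Usp36 and Engase (r = 0.949 each), of which Cant1 and Usp36 were below the WT libraries in Hmgn1-/- mESCs alone. For Peg10 they were Usp36 (0.898), Kctd10 (0.886) and the imprinted gene Zdbf2 (0.881), and for Sgce they were Engase (0.884), Tube1 (0.877) and Tfap4 (0.873). Usp36 stood at 118 ± 6.71 CPM (SD, n = 3) in WT, 63.8 ± 4.06 in Hmgn1-/-, 131 ± 14.7 in Hmgn2-/- and 130 ± 8.24 CPM in the double knockout.

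The members that were lower or higher than WT in all 3 knockouts had other genes most like them. For Mest these were Heatr3 (r = 0.976), Pard3 (0.974) and Nfkb1 (0.972), all higher in the knockouts. For Peg3 they were Srgap2 (0.982), Pabpc1 (0.979) and Phf16 (0.974), and for Plagl1 they were Trp53inp1 (0.959), Pxdn (0.956) and Casc4 (0.952), all lower in the knockouts. For Usp29, whose values rest on few counts, they were Twist1 (0.932), Gm14325 (0.910) and Fgf13 (0.902).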

How the data were processed

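Poly-A, paired-end RNA-Seq had been run on 4 mESC lines in 3 biological replicates each. STAR was used by the authors for alignment to mm10, and the counts they deposited are whole numbers for 23412 genes, without normalization; the counting program, annotation and use of strand are not given in the sources used here. Groups came from the sample labels. The 10 members and the gene lists were chosen with earlier results of these data known.

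Pairwise fits of 6 libraries and a 12-library fit for the departure from additivity used edgeR 4.0.16 in R 4.3.3 (TMM, default filter on low counts, quasi-likelihood test, Benjamini-Hochberg adjustment). SE were taken from the log2 FC and the F statistic. Library totals ran from 17337908 to 31448468. The steps were tested on simulated data. Alternatives were DESeq2 1.42.0, RLE scaling, other filters, all 12 libraries in 1 fit, a block for the replicate number, and leaving out each library in turn.

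Named genes were the targeted genes, the members, listed genes past the threshold in a pairwise comparison and genes overlapping a member. They also included the most abundant markers, those at 0, and the 3 genes most like each member. Zfp57, Cobl and Nlrp2 were named outside this rule. The other genes are said to be chosen after their values were seen. Genes beside the members had to be tested in the 12-library fit and to be no member; some are also among the other imprinted genes. The result of 1 further gene beside a member is not reported here. Of the gene names, 21560 matched a RefSeq symbol and 1688 a synonym. Python 3.11.15 was used for tables and figures.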

Additional observations from a re-analysis of the deposited data

Results flagged for a closer look

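The departure from additivity, from the fit of all 12 libraries, compares lines, in which genotype and a property of the line cannot be told apart. For some named genes it was past an adjusted p of 0.01 and a log2 value of 1 in size. Among the members these were Nnat at 2.73 and Peg3 at 1.22, which are a description since the members were chosen on these values. Nnat was low in Hmgn1-/- mESCs only, and Peg3 was alike in the 3 knockouts.

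Of the genes beside the members 3 had such a value. Those within the rule for named genes were Aurkc at 1.96 (SE 0.420, adjusted p = 0.00557 by the edgeR quasi-likelihood test with Benjamini-Hochberg adjustment) and Col1a2 at 3.23 (SE 0.676, adjusted p = 0.00469), both alike in the 3 knockouts and lower than in WT. The call of Aurkc was lost without Hmgn1-/- replicate 1 (1.89) or 2 (1.86), Hmgn2-/- replicate 2 (1.81), or the double knockout replicate 1 (1.82), 2 (1.99) or 3 (2.04). The call of Col1a2 was lost without WT replicate 3 (3.08), Hmgn1-/- replicate 2 (2.94) or 3 (3.21), Hmgn2-/- replicate 2 (3.17), or the double knockout replicate 1 (3.29) or 2 (2.91).

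Of the markers of cell types, 5 of 8 tested for primitive endoderm, 3 of 4 for fibroblasts and 1 of 5 for trophoblast had such a value, beside 3.48% of all genes. Among these, Thy1 was at 1.94 (SE 0.231), alike in the 3 knockouts, and Dab2 at −1.39 (SE 0.214), since its rise in the double knockout was smaller on the log2 scale than the sum of those in Hmgn1-/- and Hmgn2-/- mESCs. Hmgn1 itself was at −2.63 (SE 0.0991), with 20.9 ± 0.880 CPM (SD, n = 3) in the double knockout and 140 ± 1.72 CPM in Hmgn1-/- mESCs, which were edited in separate steps.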

How the results depend on the processing

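No value of a named gene that was past the threshold changed sign under any alternative. Of the counts of genes, 347 values under the alternatives were within 1.5 times the reported count and 47 were not. With a mean of at least 50 counts, where fewer genes were tested, 477, 467 and 553 genes were past the threshold against WT in Hmgn1-/-, Hmgn2-/- and double knockout mESCs, in place of 832, 724 and 890. Members then numbered 3 in Hmgn2-/- and 2 in the double knockout against WT and 3 in the double knockout against Hmgn1-/- mESCs, and genes beside the members 1 in Hmgn1-/- and 1 in Hmgn2-/- mESCs.

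In the double knockout against Hmgn2-/- mESCs 6 genes were past the threshold, against 29 by DESeq2, 21 with no filter on low counts and 18 with all 12 libraries in 1 fit; the cause was not tested. Other imprinted genes past the threshold numbered 2 in Hmgn1-/- mESCs with no filter, 1 in Hmgn2-/- mESCs by DESeq2, with no filter or with all 12 libraries, and 2 in the double knockout with no filter or all 12 libraries. The gene gained against WT was Calcr in each case.

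Same-numbered libraries of different groups deviated together with r of 0.064 to 0.59, over 0.1 in 16 of 18 pairs, and in 34 of 36 combinations a library correlated best with its own number. As 2 pairs were below 0.1, the numbers were not taken to pair the libraries, although in 4 of 6 pairs of groups every r was over 0.1. With the replicate block 32 genes were past the threshold in the double knockout against Hmgn2-/- mESCs, and other imprinted genes numbered 2 in Hmgn1-/-, 1 in Hmgn2-/- and 2 in double knockout mESCs against WT (Calcr gained) and 1 in the double knockout against Hmgn1-/- mESCs (Gpr1). With the block Sgce was past the threshold in Hmgn2-/- against Hmgn1-/- mESCs (1.16), and Peg10 for the departure from additivity (1.14); no other call of a member changed. Col22a1, beside Peg13, was past it with the block in Hmgn1-/- (−1.13) and double knockout mESCs (−1.11).

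With 1 library left out, genes past the threshold ranged from 1 to 12 in the double knockout against Hmgn2-/- mESCs. Members ranged from 1 to 3 in Hmgn1-/- and 3 to 5 in Hmgn2-/- mESCs against WT, and from 1 to 3 for the departure from additivity. Other imprinted genes ranged from 1 to 2, 0 to 1 and 0 to 2 in the 3 lines against WT and from 0 to 1 in Hmgn2-/- against Hmgn1-/- mESCs. Genes beside the members ranged from 2 to 4 in Hmgn1-/- and 1 to 3 in Hmgn2-/- mESCs against WT. Depth limits what can be said of Usp29, Nap1l5 and Peg13 where they had few counts.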

Other observations

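Of the 26 genes most like the members, 4 lie close together on chromosome 9 and 4 on chromosome 11, positions the choice did not use. Hyal2, Rbm6, Rhoa and Usp4 lie within 0.825 Mb on chromosome 9 (107567873 to 108392545 in mm10), and their log2 FC was −0.94, −0.85, −0.88 and −0.98 in double knockout mESCs against WT, with values of −0.95, −0.79 and −0.91 for the former 3 in Hmgn2-/- mESCs, where Usp4 was at 49.7% of the WT mean, and values of 0.06, 0.14, 0.03 and 0.02 in Hmgn1-/- mESCs. Cant1, Engase, Tmc6 and Usp36 lie within 0.723 Mb on chromosome 11 (117765985 to 118489209). Cant1, Engase and Usp36 were at −0.88, −0.91 and −0.89 in Hmgn1-/- mESCs, and at −0.06, −0.08 and 0.14 in the double knockout. Tmc6 was at 0.22 in Hmgn1-/-, −0.87 in Hmgn2-/- and −0.78 in double knockout mESCs. The genes were chosen on r over these libraries, so these values are a description.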
